A study of Mus musculus with 4 samples.

Results

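The genes described here are 46 nuclear genes for subunits of the oxidative phosphorylation machinery and for cytochrome c, chosen by symbol from the 21887 protein-coding genes on the chromosomes covered by the peak lists. They comprise 17 genes of complex I, 4 of complex II, 5 of complex III, cytochrome c, 9 of complex IV and 10 of complex V. All 46 symbols were found in a RefSeq gene table of assembly GRCm38.p6, which is mm10, 1 of them (Atp5f1) under its newer symbol Atp5pb. The libraries came from white adipose tissue, inguinal per the series title, of male C57BL/6 mice aged 23 weeks with high fat diet-induced obesity (DIO), treated with entacapone or with vehicle. For each treatment there was 1 m6A immunoprecipitate (IP), deposited as a peak list, and 1 input, deposited as a table of read counts. The labels do not say how many animals gave a library, nor the dose or length of treatment. Obesity, diet, sex and age were shared by both treatments, and no lean or untreated animals are part of these data.

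Oxidative phosphorylation passes electrons from NADH and succinate through complexes I to IV to oxygen, and complex V, the ATP synthase, uses the resulting proton gradient to make ATP. In brown and beige fat the same gradient is dissipated as heat, whereas white fat has few mitochondria and lower respiratory capacity. N6-methyladenosine (m6A) is a modified base of mRNA, often found near stop codons and in long exons, that is written by the METTL3 and METTL14 complex. Antibodies against m6A also bind m6Am, a related modification at the cap of many mRNAs. Entacapone, a drug of Parkinson's disease, has also been reported to inhibit FTO, an enzyme that removes m6A. The lists were compared to ask where the m6A signal differed between the treatments.

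The entacapone input held 33164576 counts and the vehicle input 24548212, a ratio of 1.35. There were 31856 peaks in the entacapone list, against 22860 in the vehicle list. The depth of the IP libraries is not given by the files. With 1 library of each kind there was no replicate and no test, so every difference below lies between these libraries. The count tables name genes by Ensembl identifier, and no table used here pairs these with symbols, so the RNA level of the subunits was not analysed here and its part in the peak counts was not tested. In bulk tissue, fewer cells of a type and less RNA per cell cannot be told apart. Defining markers of white adipocytes carried a peak in 5 of 9 cases in the entacapone list and in 4 of 9 in the vehicle list. Of all protein-coding genes, 49.1% and 40.2% did. In the entacapone list 2 of 8 markers of brown and beige adipocytes, 5 of 10 of skeletal muscle, 6 of 7 of lymphocytes, 3 of 6 of macrophages, 4 of 4 of endothelium, 5 of 5 of skin and gland epithelium and 2 of 3 of erythroid cells had a peak. In the vehicle list 1 of 8 markers of brown and beige adipocytes, 6 of 10 of muscle, 4 of 7 of lymphocytes, 4 of 6 of macrophages, 1 of 4 of endothelium, 3 of 5 of epithelium and 1 of 3 of erythroid cells did. A peak does not measure the level of a transcript, so these counts do not check the tissue's composition, and the part of other cell types in the results was not tested.

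Few of the oxidative phosphorylation subunits carried an m6A peak in either library. Peaks of the entacapone list fell in 6 of the 46 genes (13.0%), against 1 of 46 (2.17%) in the vehicle list. Over all protein-coding genes the shares were 49.1% in the entacapone list and 40.2% in the vehicle list. A peak counted for a gene when its midpoint lay in the gene span, the shorter gene being taken where protein-coding spans overlapped. The subunits with an entacapone peak were Ndufa8, Ndufs8 and Ndufv2 of complex I and Atp5c1, Atp5j and Atp5k of complex V. Each had 1 entacapone peak, and Atp5c1 alone also had a vehicle peak. Of the 46 genes, 1 thus had a peak in both lists, against 37.8% of all protein-coding genes, and 5 (10.9%) had entacapone peaks but no vehicle peak, against 11.3%. The share with entacapone peaks but no vehicle peak was thus close to that over all genes. None had vehicle peaks but no entacapone peak, a class that held 2.45% of protein-coding genes.

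**Figure D1:**
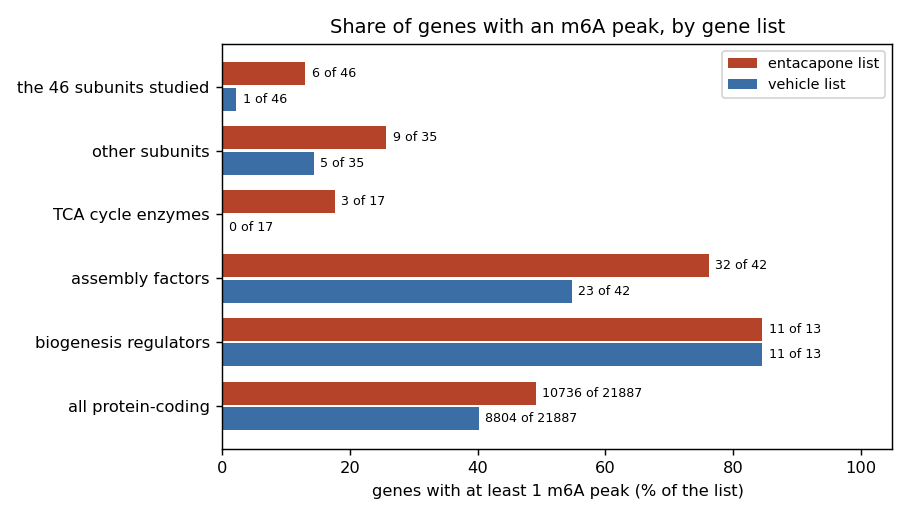
Share of genes with at least 1 m6A peak in the entacapone list (upper bar) and the vehicle list (lower bar), in percent of each gene list on the horizontal axis, with the number of genes beside each bar. The 46 subunits studied stood at 13.0% and 2.17%, the assembly factors at 76.2% and 54.8%, and all protein-coding genes at 49.1% and 40.2%.

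The peaks overlapped the promoter windows of RefSeq, from 250 bases before to 50 bases after an annotated start, in 2 of the 6 genes. These windows are shown because they hold sequence beneath the peaks; no genome sequence was used here. Capitals mark the bases inside the entacapone peak, taking the deposited starts to count from 0, and both windows lie on the minus strand of GRCm38.p6 and are written 5′ to 3′ along the gene. The Ndufa8 window is chr2:36049289-36049588, with 6 bases in the peak. The Atp5j window is chr16:84835576-84835875, with 71 bases in the peak.
Ndufa8: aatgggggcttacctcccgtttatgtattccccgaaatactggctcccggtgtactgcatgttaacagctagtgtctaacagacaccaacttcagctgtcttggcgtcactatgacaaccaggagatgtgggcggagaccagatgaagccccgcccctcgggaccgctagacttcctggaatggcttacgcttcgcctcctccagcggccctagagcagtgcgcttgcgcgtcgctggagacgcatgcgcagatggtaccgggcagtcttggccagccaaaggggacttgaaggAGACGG
Atp5j: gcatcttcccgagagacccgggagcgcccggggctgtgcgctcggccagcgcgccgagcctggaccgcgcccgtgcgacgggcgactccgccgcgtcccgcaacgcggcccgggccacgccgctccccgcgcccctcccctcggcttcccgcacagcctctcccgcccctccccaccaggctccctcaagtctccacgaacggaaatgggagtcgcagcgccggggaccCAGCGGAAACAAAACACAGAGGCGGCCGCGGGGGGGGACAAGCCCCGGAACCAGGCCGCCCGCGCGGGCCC
In Ndufa8 the overlap lay at the downstream edge of the window, and in Atp5j the peak lay across 1 of the 2 starts in the RefSeq table, which is inside the gene span.

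Complex I, the NADH dehydrogenase, has core subunits that carry the redox centres and accessory subunits around them. Of its 17 genes here, 3 (17.6%) had an entacapone peak and 0 a vehicle peak. The Ndufs8 peak, in the gene of an iron-sulfur core subunit, lay on chromosome 19 at 3912640 to 3912708 with a fold of 3.19. This fold is the authors' unlabelled number for the peak, read as enrichment of IP over input, and describes a peak within its own list. It stood at the 52.6 percentile of the entacapone list, close to the median fold of 3.10. The nearest vehicle peak was 1019 bp away, outside the Ndufs8 span.

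The Ndufv2 peak, in the gene of another iron-sulfur core subunit, lay on chromosome 17 at 66097748 to 66097797 with a fold of 4.08, at percentile 71.8, the highest of the subunits studied. It was 49 bp wide, the smallest width in the list, which 3.60% of entacapone peaks had, and the nearest vehicle peak was 13794 bp away. Ndufa8 encodes an accessory subunit. Its peak, on chromosome 2 at 36049245 to 36049294, was also 49 bp wide and had a fold of 1.65, at percentile 2.16, near the lowest fold in the list of 1.49. No peak of either list lay in the core subunit genes Ndufs1, Ndufs3, Ndufs7 and Ndufv1 or in the accessory subunit genes Ndufa1, Ndufa2, Ndufa5, Ndufa9, Ndufa10, Ndufb3, Ndufb5, Ndufb8, Ndufb9 and Ndufb10.

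Complex II, succinate dehydrogenase, also works in the TCA cycle, and none of its 4 genes had a peak in either list: the flavoprotein gene Sdha, the iron-sulfur subunit gene Sdhb and the membrane anchor genes Sdhc and Sdhd. Complex III passes electrons from ubiquinol to cytochrome c. Its 5 genes had no peak, namely Uqcrc1 and Uqcrc2 for the core proteins, Uqcrfs1 for the Rieske iron-sulfur protein, Cyc1 for cytochrome c1 and Uqcrq for a small subunit. Cycs, the gene of somatic cytochrome c, the mobile carrier between complexes III and IV, had none either. The same held for the 9 genes of complex IV, cytochrome c oxidase: Cox4i1, Cox5a, Cox5b, Cox6a1, Cox6b1, Cox6c, Cox7b, Cox7c and Ndufa4, a subunit long counted with complex I. Of the 46 genes, those without a peak had a median span of 7.08 kb (range 1.90 to 34.3). The longest of these spans were Ndufa10 with 34.3 kb, Ndufs1 with 33.2 kb and Sdha with 28.0 kb.

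In complex V, 3 of 10 genes (30.0%) had an entacapone peak and 1 (10.0%) a vehicle peak. Atp5c1 encodes the gamma subunit, the central rotor stalk. Its peak lay on chromosome 2 at 10069654 to 10069761 in the entacapone list, with a fold of 2.88 (percentile 43.8), and at 10069658 to 10069754 in the vehicle list, with a fold of 3.02 (percentile 41.6). The vehicle peak lay wholly within the entacapone peak, and this was the only peak of the 46 genes found in both lists. Atp5j encodes coupling factor 6 of the peripheral stalk. Its entacapone peak, on chromosome 16 at 84835557 to 84835646, had a fold of 2.35 (percentile 26.5) and lay 10103 bp from the nearest vehicle peak.

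The midpoint of the Atp5j peak also lay in the span of Gabpa, the gene of an ETS-family transcription factor that overlaps the 5′ end of Atp5j, and without strand the peak cannot be told apart between the genes. Atp5k encodes the small e subunit of the membrane part. Its entacapone peak, on chromosome 5 at 108433287 to 108433357, had a fold of 1.83 (percentile 7.13). The nearest vehicle peak was 7757 bp away. No peak lay in Atp5a1 and Atp5b, which encode the alpha and beta subunits of the catalytic head, in the rotor gene Atp5d, in the peripheral stalk genes Atp5f1, Atp5h and Atp5o or in the c-ring gene Atp5g1.

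**Figure D2:**
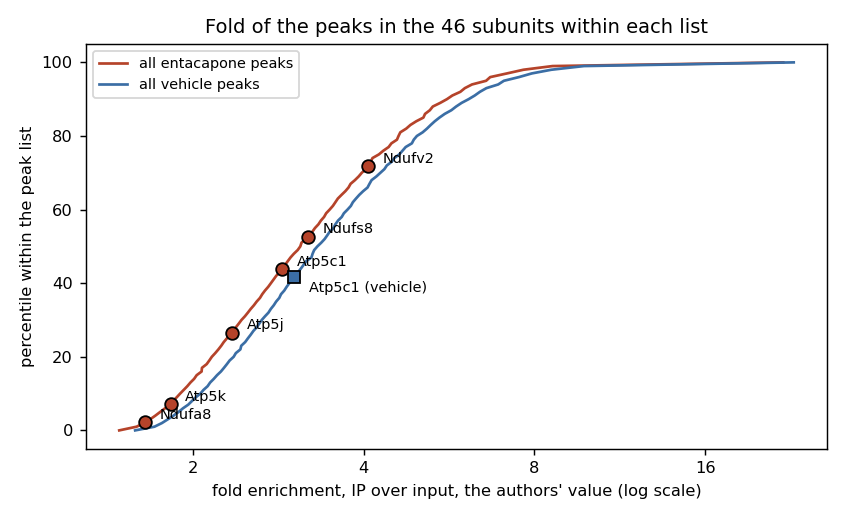
Fold enrichment of IP over input (the authors' value, horizontal, log scale) against the percentile within the peak list (vertical). Lines show all entacapone and all vehicle peaks, circles the 6 entacapone peaks and the square the 1 vehicle peak in the subunits studied, which lay between folds of 1.65 and 4.08.

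The folds of the 6 entacapone peaks ranged from 1.65 to 4.08 with a median of 2.62, against a median of 3.10 over all 31856 entacapone peaks. The 1 vehicle peak had a fold of 3.02, against a median of 3.32 over all 22860 vehicle peaks. At a fold of at least 4 only Ndufv2 remained in the entacapone list and no subunit in the vehicle list, where 21.3% and 19.1% of protein-coding genes had such a peak. When the entacapone list was reduced to its 22860 peaks of largest fold, the size of the vehicle list, 3 of the 46 genes kept a peak (Ndufs8, Ndufv2 and Atp5c1), against 39.4% of protein-coding genes. Atp5j, at rank 23399, lay just outside that limit.

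The subunit genes have short spans, and span length goes with how often a gene holds a peak. The median span was 7.11 kb (range 1.15 to 34.3) for the 46 genes and 17.2 kb for all protein-coding genes. Among other protein-coding genes with a span between the quartiles of the subunits, 4.06 to 14.1 kb, 45.0% had an entacapone peak and 35.5% a vehicle peak. Over the whole range of the subunits' spans these shares were 46.9% and 37.3%. Among the 18 subunits of 5 to 10 kb, 1 had an entacapone peak and 0 a vehicle peak, against 43.2% and 32.8% of all genes of that length. Only in the class up to 2.5 kb was the subunits' entacapone share, 1 of 5, above that of all genes (11.1%). Subunits with an entacapone peak had a median span of 10.5 kb (range 1.15 to 24.5), and those without had one of 7.08 kb (range 1.90 to 34.3).

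**Figure D3:**
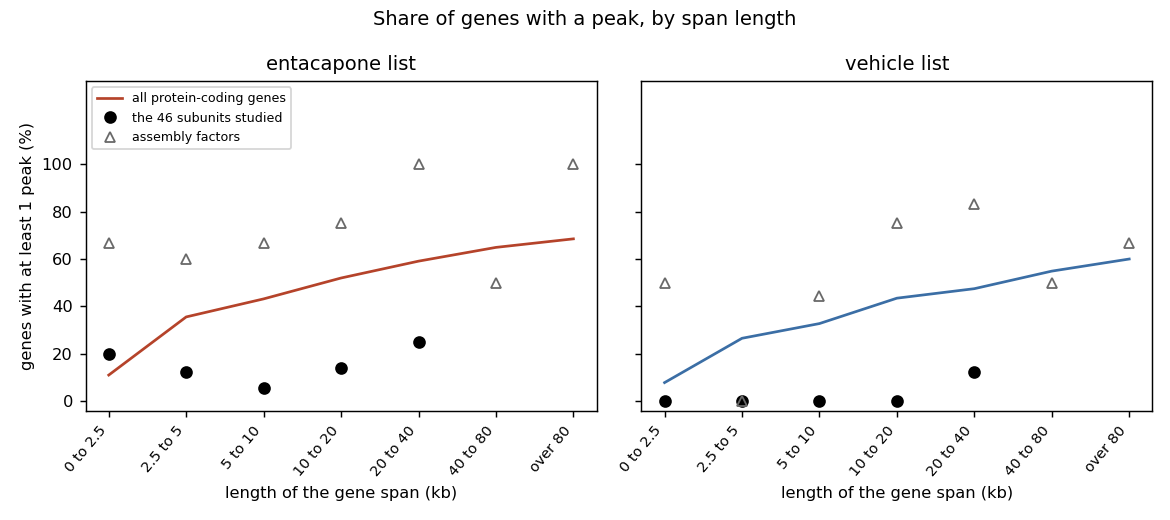
Share of genes with at least 1 peak (vertical, percent) by length of the gene span (horizontal, kb), in the entacapone list (left) and the vehicle list (right). Lines show all protein-coding genes, filled circles the 46 subunits studied and triangles the assembly factors. In the 5 to 10 kb class, 1 of 18 subunits and 6 of 9 assembly factors had an entacapone peak.

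Of the 6 entacapone peaks in the subunits, 3 lay close to the 5′ end of the gene and 1 close to the 3′ end. Strand was taken from the RefSeq promoter table, which holds 36 of the 46 genes, including all 6 with a peak. The midpoint lay 69 bp from the 5′ end of the span in Ndufa8, 100 bp in Ndufs8 and 256 bp in Atp5j. The Atp5k peak lay at the other end, 76 bp from the 3′ end. The Ndufv2 peak lay 3787 bp and the Atp5c1 peak 10803 bp inside the gene, and without an exon map it was not determined whether these are exonic or intronic.

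The subunits thus had 3 of 6 entacapone peaks within 500 bp of the 5′ end, whereas over protein-coding genes with a known strand 8.32% of entacapone peaks and 6.96% of vehicle peaks lay there. Among entacapone peaks with no overlap in the vehicle list that share was 11.2%. Among entacapone peaks in other genes with a span of 4.06 to 14.1 kb it was 11.9%. The subunits' count rests on 6 peaks and was not tested.

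A list of 35 other nuclear subunits of the same complexes was set beside them. In these genes 4 of 12 entacapone peaks with a known strand lay within 500 bp of the 5′ end, at 79 bp in Ndufc1, 113 bp in Ndufs4 and 116 bp in Ndufs6, all of complex I, and at 134 bp in Uqcrh of complex III. None of these 4 peaks overlapped a vehicle peak, and their folds were 1.99, 1.81, 1.63 and 1.57. Taking both sets of subunits together, 7 of the 13 entacapone peaks with no overlap in the vehicle list lay there. Of these 7, only the Ndufs8 peak was among the 22860 entacapone peaks of largest fold, the size of the vehicle list. All 5 vehicle peaks with a known strand in these genes lay elsewhere. This pooled count was chosen after the positions had been seen. Of the assembly factors' entacapone peaks with a known strand, 9 of 52 (17.3%) also lay within 500 bp of the 5′ end. For those with no overlap in the vehicle list it was 7 of 28, and for the assembly factors' vehicle peaks 5 of 33. For entacapone peaks it was 2 of 34 in the biogenesis regulators and 0 of 3 in the TCA cycle enzymes. A position near the 5′ end was thus not particular to the subunits.

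**Figure D4:**
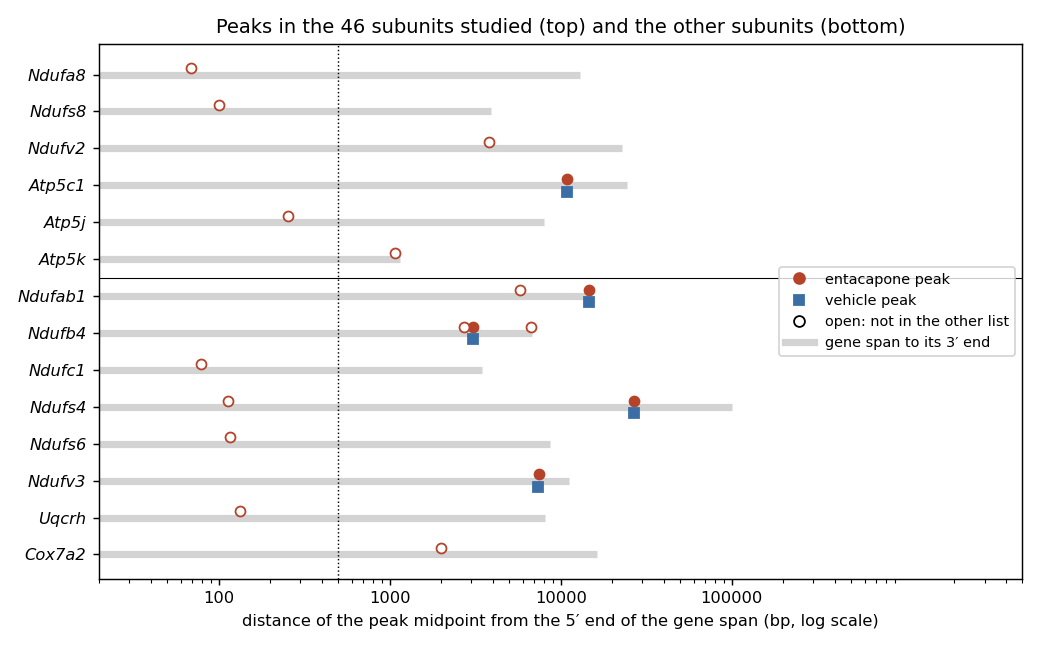
Distance of peak midpoints from the 5′ end of the gene span (horizontal, bp, log scale) for the 6 subunits studied that have a peak (above the line) and the other subunits with a peak and a known strand (below it). Circles are entacapone peaks, squares vehicle peaks, open symbols peaks found in 1 list only, and the dotted line stands at 500 bp; 7 open entacapone peaks lie left of it, and no vehicle peak does.

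Of those 35 other subunits, 9 (25.7%) had an entacapone peak and 5 (14.3%) a vehicle peak, so that over all 81 subunits 15 (18.5%) had an entacapone peak and 6 (7.41%) a vehicle peak. With the entacapone list reduced to the size of the vehicle list by fold, the order turned, to 3 of the 35 in the entacapone list and 5 in the vehicle list. Most genes with a peak belonged to complex I, with 7 of 19 genes in the entacapone list and 4 of 19 in the vehicle list. Ndufb4, an accessory subunit gene, had 3 entacapone peaks and 1 vehicle peak, and Ndufab1, which encodes the mitochondrial acyl carrier protein, had 2 entacapone peaks and 1 vehicle peak. Ndufs4, an accessory subunit gene whose span is 100 kb long, also had 2 entacapone peaks and 1 vehicle peak, with the shared peak at a fold of 5.61 in the entacapone list and 5.25 in the vehicle list. Cox6a2, which encodes the muscle form of a complex IV subunit, had 0 entacapone peaks and 1 vehicle peak, with a fold of 4.36. Cox6a2 is 1 of the muscle markers above, and of the 9 others 5 had an entacapone peak and 5 a vehicle peak. The 6 other complex V genes of this list had no peak.

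The assembly factors of the same complexes, which insert cofactors and join the subunits but do not stay in the finished enzyme, had larger shares with a peak. Of 42 such genes, 32 (76.2%) had an entacapone peak and 23 (54.8%) a vehicle peak, and all 23 had both. With lists of equal size these numbers turned to 19 in the entacapone list and 23 in the vehicle list. The shares over all protein-coding genes were then 39.4% and 40.2%. At a fold of at least 4 each list marked 7 of the 42, against 21.3% and 19.1% of protein-coding genes. At that fold the assembly factors thus had no larger share than all genes. Entacapone peaks were found in 11 of 14 factors for complex I, 3 of 4 for complex II, 5 of 6 for complex III, 11 of 15 for complex IV and 2 of 3 for complex V. Vehicle peaks were found in 8 of 14 factors for complex I, 2 of 4 for complex II, 4 of 6 for complex III, 7 of 15 for complex IV and 2 of 3 for complex V. Complexes II, III and IV, whose 18 subunit genes studied here had no peak, thus had 19 of 25 assembly factors with an entacapone peak and 13 with a vehicle peak. Lyrm7, a chaperone of the Rieske protein, had 4 entacapone and 3 vehicle peaks. Cox10, which takes part in making the haem of complex IV, had 3 entacapone and 2 vehicle peaks. Sco1, which delivers copper to complex IV, had 2 in each list. Atpaf1, which assembles the catalytic head of complex V, had 2 in each list. The median span of the assembly factors was 11.1 kb, longer than the subunits' 7.11 kb. In the class up to 2.5 kb 4 of 6 assembly factors had an entacapone peak and 3 of 6 a vehicle peak. From 2.5 to 5 kb 3 of 5 had an entacapone peak and 0 of 5 a vehicle peak. The part of span length in the larger shares was not tested.

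Regulators of mitochondrial biogenesis also carried peaks. The entacapone list marked 11 of 13 genes (84.6%) and the vehicle list 11 of 13, with 10 marked in both. Their spans were longer than the subunits', with a median of 27.2 kb (range 7.1 to 662). Nrf1, a transcription factor of respiratory genes, had 6 entacapone and 4 vehicle peaks, and Ppargc1a, the coactivator PGC-1α, had 6 entacapone and 2 vehicle peaks, with no overlap between the lists. Tfam, which packages mitochondrial DNA and takes part in its transcription, had 1 in each list. Gabpa had 2 in each list, not counting the peak assigned to Atp5j. Esrra, a nuclear receptor that partners with PGC-1α, had 0 entacapone peaks and 1 vehicle peak, and Tfb2m, a mitochondrial transcription factor, had 1 entacapone peak and 0 vehicle peaks. Enzymes of the TCA cycle had a peak in 3 of 17 cases (17.6%) in the entacapone list, namely Dlst, Sucla2 and Dlat, and in 0 of 17 in the vehicle list. The median span of these 17 genes was 23.8 kb (range 5.14 to 246). The 13 mitochondrially encoded subunit genes lie on a chromosome that neither list covers.

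Outside the spans but within 1 kb of them lay 11 further peaks, 6 in the entacapone list and 5 in the vehicle list, next to 5 of the 46 genes. Those next to Ndufa1, Ndufs3 and Ndufs8 fell in the neighbouring genes Rnf113a1, Kbtbd4 and Aldh3b1, in both lists. Next to Ndufa9, 853 bp past the 3′ end in the entacapone list and 901 bp past it in the vehicle list, lay overlapping peaks in no protein-coding span, with folds of 3.11 and 6.85. Next to Uqcrc2 lay 1 entacapone peak, 222 bp outside the span, with a fold of 3.80. Of the 46 spans, 8 overlapped another protein-coding span. Among 18 pseudogenes named after 11 of the 81 subunit genes, none held a peak in either list.

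The promoters of the subunits were searched because respiratory genes are known targets of the transcription factors NRF1, GABPA (an ETS factor) and YY1. RefSeq held 40 promoter windows of 300 bases for 36 of the 46 genes. There was none for Ndufa2, Ndufb9, Ndufs1, Sdhc, Uqcrc2, Uqcrq, Cyc1, Cox4i1, Cox6c and Atp5a1. On either strand, the NRF1 core GCGCANGCG was found in 13 of 40 windows (32.5%), against 8.58% of 21263 windows of protein-coding genes. A core with 1 more C at its end was searched first and found in 11 of 40 windows (27.5%), against 6.38% of all windows; the shorter core was taken after those values had been seen. The ETS core CCGGAAG was found in 9 windows (22.5%, against 11.6%) and the YY1 core AAGATGGCG in 3 (7.50%, against 1.83%). The CCAAT box was found in 32.5% against 38.2%, the GC box GGGCGG in 40.0% against 46.2%, and the TATA box TATAAA in 2.50% against 12.6%. The ERR site TCAAGGTCA was found in 1 window, that of Sdhd (2.50%, against 0.334%). None of these motifs contains another, though matches can overlap. Median GC content was 58.8% in the subunit windows and 56.3% in all windows.

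In all, 19 of the 36 genes (52.8%) had an NRF1, ETS or YY1 core, against 21.8% of 17492 protein-coding genes with a window. The 12 genes with an NRF1 core included members of all 5 complexes and Cycs. The core nearest the start is shown for each so that its spelling can be compared. Capitals mark the core, given on the gene's strand, and the sequences and positions are those of RefSeq on GRCm38.p6.
Atp5c1, chr2:10080431-10080459, minus strand: ctgagctcccGCGCACGCGcactgagtcc
Atp5h, chr11:115420042-115420070, minus strand: gaccccgacgGCGCAGGCGccgcgcccgc
Atp5k, chr5:108434430-108434458, minus strand: ttcactgcggCGCATGCGCctttctggct
Atp5o, chr16:91931602-91931630, minus strand: ctggcgcgcgCGCGTGCGCtctggcgcca
Cox6a1, chr5:115349057-115349085, minus strand: cggataaagtGCGCAGGCGctggagttcc
Cycs, chr6:50566612-50566640, minus strand: catgctagctCGCATGCGCgcgcacaaac
Ndufa5, chr6:24527698-24527726, minus strand: tgtgtgagctGCGCAGGCGcaaatctacc
Ndufa8, chr2:36049329-36049357, minus strand: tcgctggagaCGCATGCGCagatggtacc
Ndufb10, chr17:24724407-24724435, minus strand: tcacctttctGCGCAGGCGtagaggtccc
Sdha, chr13:74350232-74350260, minus strand: gcgactcggtGCGCAAGCGcagtctgtcg
Sdhd, chr9:50603910-50603938, minus strand: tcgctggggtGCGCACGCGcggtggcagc
Uqcrc1, chr9:108936644-108936672, plus strand: ttccttacagCGCTTGCGCctcagactcc
The core took both orientations in these windows. Among the subunits with a peak, Ndufa8, Atp5c1 and Atp5k had an NRF1 core, and Ndufs8, Atp5j and Atp5k an ETS core. Atp5j also had a YY1 core, while the Ndufv2 window had none of the 3. Both Atp5j matches lay in the window of its other start, not in the window printed above. A match describes the letters only and does not show that a factor binds there.

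**Figure D5:**
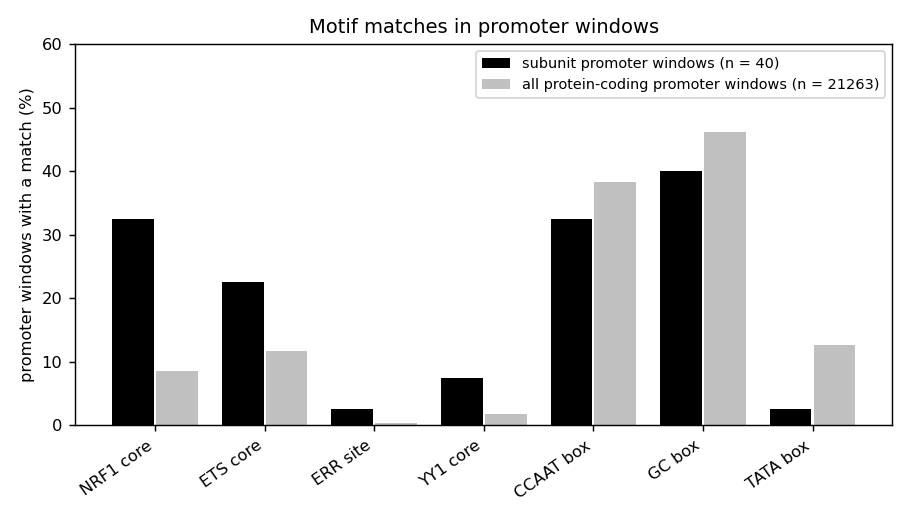
Share of promoter windows (vertical, percent) with at least 1 match to each motif (horizontal) for the 40 windows of the subunits studied (black) and the 21263 windows of all protein-coding genes (grey). The NRF1 core was found in 32.5% and 8.58% of windows and the TATA box in 2.50% and 12.6%.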

How the data were processed

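The submitters' processing notes name TopHat2 2.1.1, MACS2 and the mouse build mm10, and the sources used here give no peak threshold, counting tool or annotation release. Each deposited IP file is a peak list with an unlabelled number, which is never below 1 and was read as the authors' linear fold, the ratio of IP to input signal. The deposited input values are raw counts per Ensembl identifier, and were used here only for library totals: 0 identifiers could be paired with symbols, so the planned input comparisons were not run. Midpoints of peaks were assigned to spans of the RefSeq table (Python 3.11.15, pandas 2.3.3, numpy 2.4.6), an overlap of 1 bp counting as shared. On simulated data, 200 of 200 peaks laid on isolated genes were recovered. Groups follow the sample titles. Promoter windows of RefSeq were searched for fixed motifs on both strands. Every one of the 46 genes may be named; of the other lists, genes with a peak may be. The 46 genes and the lists were chosen with earlier results of these data known, and the span classes, the 500 bp limit and the NRF1 core after the data had been seen. No count of features carries a replicate error, since each kind of library was sequenced once.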

Additional observations from a re-analysis of the deposited data

How the results depend on the processing

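Of 13 alternative counts for the 46 genes, 10 stayed within 1.5 times the reported number. The number of subunits with an entacapone peak moved to 1 at a fold of at least 4 and to 3 with the entacapone list reduced to the size of the vehicle list by fold, and that with a vehicle peak moved to 0 at a fold of at least 4. Without peaks in more than 1 protein-coding span it was 5 for entacapone and 1 for vehicle, and without peaks of the smallest width 4 for entacapone and 1 for vehicle. These settings without some peaks, and all for the other lists, were chosen after seeing the data. Of 24 such counts for the other lists, 15 stayed within that margin and 9 moved. With lists of equal size the numbers of assembly factors and of other subunits turned, as given above. In that setting only entacapone peaks of low fold are dropped, by construction. No paired analysis was possible because each treatment has 1 library of each kind. The alternatives planned for input counts (size factors, total counts, upper quartile, no filter, interval and prior count) were not run, since no count could be paired with a gene name.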
